A study of Mus musculus with 4 samples.

Results

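The cytosolic chaperonin CCT, also called TRiC, was examined through the ribosome-protected fragments of its 8 subunit genes, Tcp1, Cct2, Cct3, Cct4, Cct5, Cct6a, Cct7 and Cct8. They were taken as the rows of the deposited table that carry these symbols, and all 8 were found among its 22396 named genes. The cells, from mouse testis and positive for the surface protein THY1, came from Ddx20 knockout mice (2 samples) and from littermate controls (2 samples). DDX20 is an RNA helicase of the DEAD-box family and a member of the SMN complex, which assembles spliceosomal particles, and the study asked what its loss does to prospermatogonia, the cells from which spermatogonial stem cells form. About 1000 cells were used for each sample. The labels call them mouse testis cells and give no age, strain or deletion method. No source used here says whether a group's samples are from different animals. The p-values thus measure counting error and any spread between these samples, and not a known spread between animals.

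CCT is a barrel of stacked rings in which each ring holds one copy of every subunit. It takes up proteins that cannot reach their fold alone, uses ATP to close over them, and is best known for folding actin and tubulin and for several beta-propeller proteins that act in the cell cycle. The subunits are related in sequence and differ in the clients they touch and in how tightly they bind ATP. In the yeast and bovine complexes the subunits encoded by Tcp1, Cct2, Cct4 and Cct5 form a side of the ring that binds ATP tightly, and those encoded by Cct3, Cct6a, Cct7 and Cct8 a side that binds it weakly. Tcp1, named after the mouse t-complex, has long been known as a gene with strong expression in the testis.

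The table holds a mean over all libraries and 1 comparison per gene. Whole reads in 4 libraries, called A to D, were recovered from the means, with 282722 reads in library C, 221439 in D, 941014 in A and 789570 in B. Though C and D held fewer reads, these covered more genes: 19374 in C and 19157 in D, against 14405 in A and 14048 in B. Genes with a single read in all numbered 469 in C and 451 in D, against 37 in A and 26 in B. What part this wider scatter of reads has in the fold changes was not tested. Libraries C and D form the side with positive fold changes and A and B the side with negative ones. The genotype of each side is not stated in the sources used here, and none was assigned. Here "fell" means lower in C and D than in A and B, and every direction would flip if the sides were swapped. Levels below are reads divided by the authors' size factors, called normalised reads. Over 10193 genes libraries A and B differed by no more than sampling noise (0.983 chi-square per degree of freedom, with p = 0.889), so they may count as 1 sample. Over 10924 genes the spread of C against D exceeded that noise (1.09 chi-square per degree of freedom, with p = 1.96e-11).

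The targeted gene, Ddx20, had 42.6 and 50.8 normalised reads in libraries C and D, against 167 and 173 in A and B. It fell, with a log2 fold change of -1.83 (SE 0.243, Benjamini-Hochberg adjusted p = 4.07e-13, from the authors' deposited table). Thy1, the marker of the isolation, had 1 and 3 reads in C and D, against 18 and 15 in A and B. The authors' deposited table gave it -1.05 on the log2 scale, which did not pass (Benjamini-Hochberg adjusted p = 0.156).

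All 8 subunit genes fell, with log2 fold changes of -2.74 to -1.60 in the authors' deposited table. Their summed share of reads was 0.256% in C (95% Wilson interval 0.238 to 0.275) and 0.274% in D (0.253 to 0.296), against 0.801% in A (0.783 to 0.819) and 0.800% in B (0.781 to 0.820). These intervals, and those further on, reflect counting error alone. Of the 17347 tested genes 18.8% fell and 26.9% rose, by the authors' deposited table, and the median log2 fold change of the subunits was -2.10, against 0.38 over all tested genes. No matched RNA sequencing was used, so fewer ribosomes per transcript, fewer transcripts per cell and fewer cells of a type cannot be told apart. Nor was the part tested that the wider scatter of reads in C and D has in the fall.

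Genes with a similar number of reads were set beside the subunits. The subunits had means of 232 to 485 normalised reads, and most genes of that range fell too: 131 of the 155 other genes between these means, or 84.5%, were lower by the authors' deposited table and 12 were higher. In the authors' deposited table the median log2 fold change of these 155 genes was -1.60, and the 8 subunits all lay at or below it, Cct7 only just. Cct8, Cct6a and Tcp1 also lay below their lower quartile of -2.26, by the authors' deposited table. That 8 of 8 subunits fell is therefore near what genes of this level did. Both C and D lay below both A and B for 8 of 8 subunits, for 30.8% of 17344 tested genes with recovered reads, and for 87.7% of the 155 genes.

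**Figure D1:**
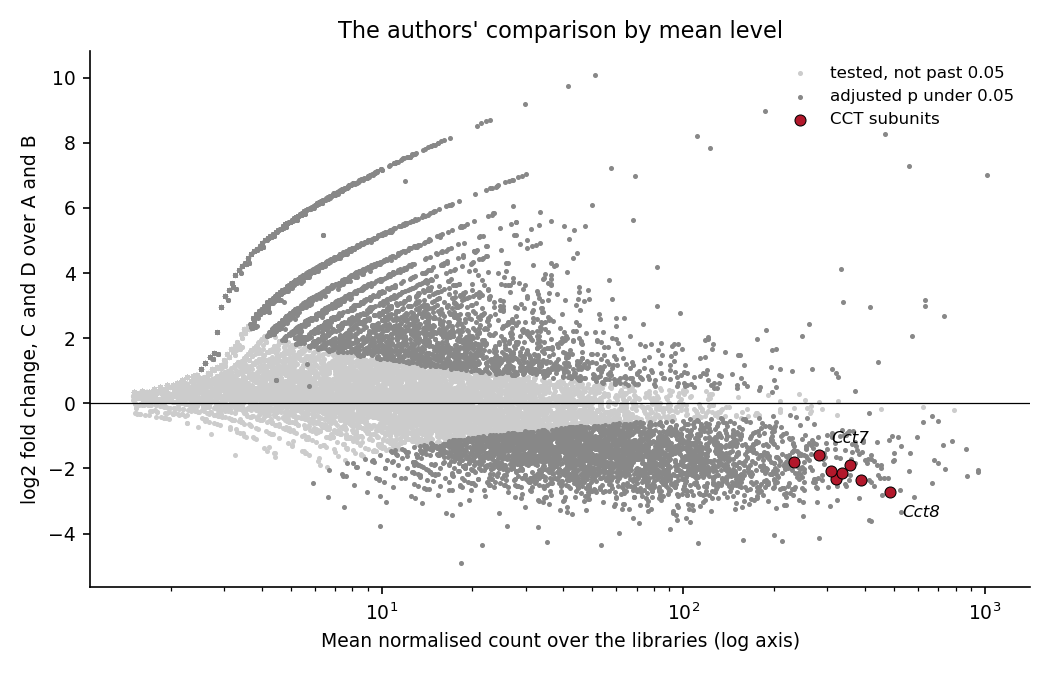
The log2 fold change of each tested gene in the authors' deposited table (vertical axis, libraries C and D over A and B) is plotted against its mean normalised count (horizontal log axis), with grey points for all tested genes and red points for the 8 CCT subunits. The subunits sit between means of 232 and 485, where most other genes also lie below 0.

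Of the subunits on the weak ATP-binding side, Cct8 (chaperonin theta) fell most. It had 124 and 127 normalised reads in libraries C and D (93 and 75 reads), against 824 and 864 in A and B (1416 and 1222 reads). Both libraries of a side were close together and the sides lay far apart. Its log2 fold change was -2.74 (SE 0.151, Benjamini-Hochberg adjusted p = 6.88e-71, from the authors' deposited table), which is 6.67-fold lower. By the authors' deposited table only 5 of the genes that fell had a smaller p.

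Cct6a (zeta) had 115 and 140 normalised reads in C and D, against 627 and 673 in A and B. It was lower in C and D than in either other library, and C and D differed more for it than for any other subunit (0.29 on the log2 scale), though their 95% Poisson intervals overlapped. The authors' deposited table gave it a log2 fold change of -2.35 (SE 0.156, Benjamini-Hochberg adjusted p = 3.30e-49). Cct3 (gamma) had 108 and 129 normalised reads in C and D, against 499 and 499.9 in A and B. Libraries A and B were nearly equal for Cct3, and its log2 fold change was -2.07 (SE 0.161, from the authors' deposited table).

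Cct7 (eta) fell least of the 8. It had 133 and 144 normalised reads in C and D (100 and 85 reads), against 433 and 414 in A and B (745 and 586 reads). The sides did not overlap, and its log2 fold change in the authors' deposited table was -1.60 (SE 0.156, Benjamini-Hochberg adjusted p = 3.49e-23). The weak ATP-binding side thus held both the gene with the largest and the gene with the smallest fall.

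On the tight ATP-binding side, Tcp1 (alpha) had 101 and 113 normalised reads in libraries C and D, against 526 and 546 in A and B. Its log2 fold change was -2.31 (SE 0.164, Benjamini-Hochberg adjusted p = 3.48e-43, from the authors' deposited table). Cct5 (epsilon) had 131 and 117 normalised reads in C and D, against 551 and 545 in A and B, with a log2 fold change of -2.13 (SE 0.156, from the authors' deposited table). In both genes the libraries of a side lay close together and the sides did not overlap.

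Cct2 (beta) had 153 and 147 normalised reads in C and D, against 559 and 564 in A and B. Its log2 fold change was -1.89 (SE 0.148, from the authors' deposited table). Cct4 (delta) had 98.6 and 108 normalised reads in C and D, against 364 and 359 in A and B, with a log2 fold change of -1.79 (SE 0.172, Benjamini-Hochberg adjusted p = 6.45e-24, from the authors' deposited table). For each of the 8 genes the 95% Poisson intervals of C and D overlapped, as did those of A and B.

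**Figure D2:**
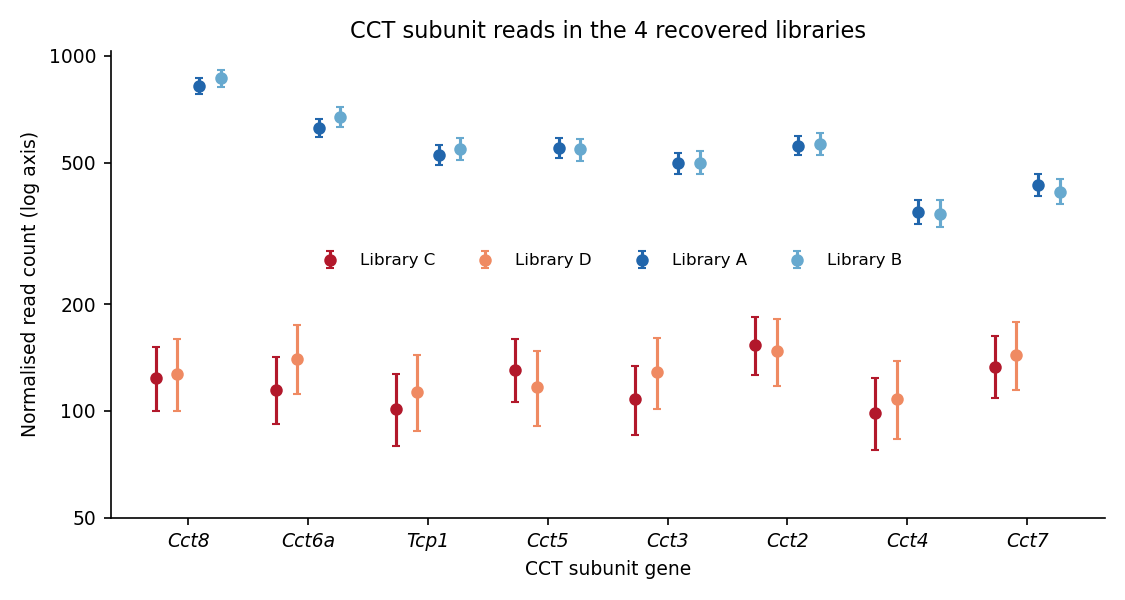
Normalised read counts (vertical log axis) of the 8 subunit genes (horizontal axis, ordered by fold change) are drawn for libraries C, D, A and B, with bars for 95% Poisson intervals. The points of C and D lie between 98.6 and 153 and those of A and B between 359 and 864.

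From the largest to the smallest fall in the authors' deposited table the order was Cct8, Cct6a, Tcp1, Cct5, Cct3, Cct2, Cct4 and Cct7. No neighbours in this order differed beyond their error: for Cct8 and Cct6a the difference was -0.39 (95% interval -0.82 to 0.03), and the other 6 neighbouring pairs were closer. The ends did differ. For Cct8 minus Cct7 the difference was -1.14 (95% interval -1.56 to -0.71). Of the 28 pairs, 12 had a 95% interval without 0, and 5 did when the intervals were widened for 28 comparisons: Cct8 against Cct2, Cct4 and Cct7, and Cct6a and Tcp1 against Cct7. These intervals take the deposited standard errors as independent between genes. Normalised reads of the subunits ranged only from 98.6 to 153 in C and D, against 359 to 864 in A and B. Cct8 and Cct6a, which fell most, were the highest in A and B, and Cct4 and Cct7, which fell least, the lowest there. The order of the falls thus partly follows the levels in A and B. What part a floor of scattered reads in C and D has in it was not tested.

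A share of the CCT reads within a library does not depend on how libraries are scaled. Cct8 held 12.9% of the CCT reads in C (95% Wilson interval 10.6 to 15.5) and 12.4% in D (9.99 to 15.2), against 18.8% in A (17.9 to 19.7) and 19.3% in B (18.4 to 20.3). Its intervals in C and D lay wholly below those in A and B. Cct7 moved the other way, with 13.8% (11.5 to 16.5) and 14.0% (11.5 to 17.0) in C and D, against 9.89% (9.23 to 10.6) and 9.28% (8.59 to 10.0) in A and B. The other 6 subunits had intervals that overlapped between the sides. Among them Cct2 and Cct4 had higher shares in both C and D than in A and B, Tcp1 and Cct6a lower ones, and Cct3 and Cct5 overlapped. An exact test over 2 libraries against 2 cannot give a two-sided p below 0.333, so no test over libraries is given for the shares.

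**Figure D3:**
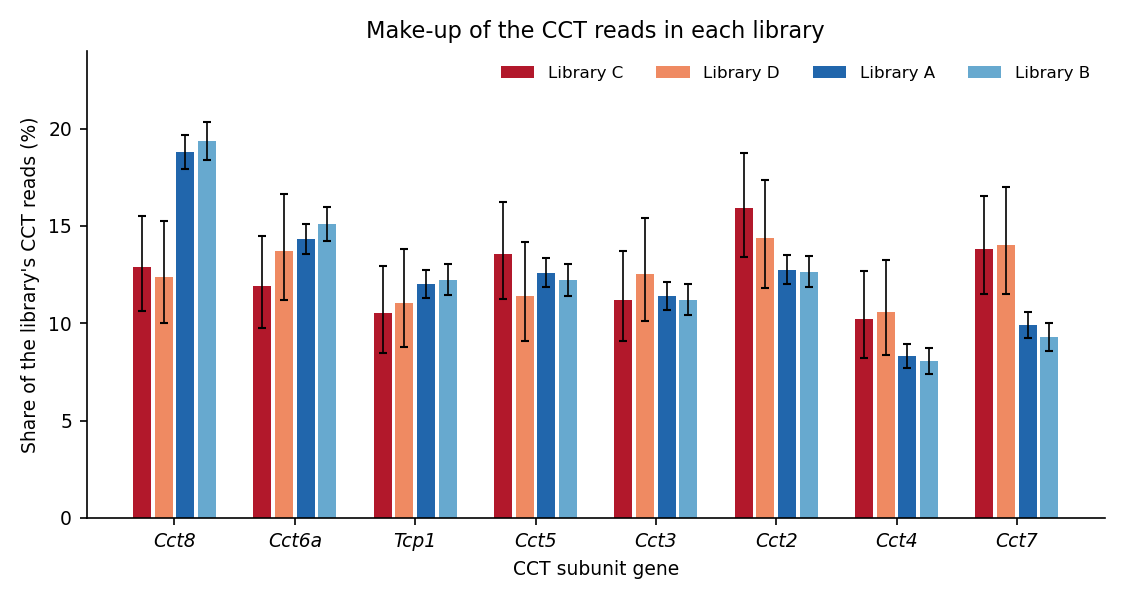
Bars give the share of each library's CCT reads (vertical axis, %) that fell on each subunit gene (horizontal axis), for libraries C, D, A and B, with 95% Wilson intervals. The Cct8 bars of C and D stand at 12.9% and 12.4%, below 18.8% and 19.3% in A and B, and the Cct7 bars of C and D at 13.8% and 14.0%, above 9.89% and 9.28%.

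The 8 genes lie on 8 different chromosomes. In the mouse build GRCm38, which the mm10 of the submitters' processing notes is another name for, RefSeq places Cct8 on chromosome 16 from 87483325 to 87495869 (minus strand), Cct7 on chromosome 6 from 85451505 to 85468477 (plus strand) and Tcp1 on chromosome 17 from 12916329 to 12925067 (plus strand). In RefSeq 4 of the 8 are overlapped by another protein-coding gene: Tcp1 by Mrpl18 and Acat3, Cct6a by Psph, Cct7 by Pradc1 and Cct8 by Usp16. How the authors counted reads on overlapping genes is not given in the sources used here. By the authors' deposited table these neighbours did not pass (Usp16 had a log2 fold change of -0.37, SE 0.376), and Acat3 carried no adjusted p.

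The promoters of the 8 genes (250 bases before to 50 after the start, RefSeq, GRCm38.p6) were searched on both strands for 5 short motifs, and 7 of the 8 matched an entry there. Shown are the gene that fell most, Tcp1, and the gene that fell least. Capitals mark matches, none of which overlap. The motif CCGGAAG is the core bound by ETS factors. The motif GGGCGG is the box bound by SP1-like factors, called GC box. The CCAAT box is named by its letters, and each was also sought as its reverse complement. Cct8 is at chr16:87495820-87496119 (minus strand), Tcp1 at chr17:12916079-12916378 (plus strand) and Cct7 at chr6:85451255-85451554 (plus strand).
Cct8: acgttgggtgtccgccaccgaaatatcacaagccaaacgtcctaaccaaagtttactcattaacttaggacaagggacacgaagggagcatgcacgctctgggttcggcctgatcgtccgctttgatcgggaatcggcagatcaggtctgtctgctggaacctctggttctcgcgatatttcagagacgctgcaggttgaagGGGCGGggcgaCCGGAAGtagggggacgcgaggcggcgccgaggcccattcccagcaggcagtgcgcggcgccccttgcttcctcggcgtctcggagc
Tcp1: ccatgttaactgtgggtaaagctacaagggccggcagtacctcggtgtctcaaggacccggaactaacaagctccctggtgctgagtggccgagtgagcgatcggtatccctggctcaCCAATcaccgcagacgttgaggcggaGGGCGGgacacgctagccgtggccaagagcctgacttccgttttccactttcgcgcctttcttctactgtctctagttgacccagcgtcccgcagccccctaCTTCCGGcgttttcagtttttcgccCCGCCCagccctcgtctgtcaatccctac
Cct7: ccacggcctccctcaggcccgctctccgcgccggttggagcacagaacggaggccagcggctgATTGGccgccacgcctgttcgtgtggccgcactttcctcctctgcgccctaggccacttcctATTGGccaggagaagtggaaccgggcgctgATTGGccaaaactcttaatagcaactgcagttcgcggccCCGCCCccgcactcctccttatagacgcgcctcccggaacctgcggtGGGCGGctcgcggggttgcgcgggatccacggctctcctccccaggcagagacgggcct

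The 7 subunits had 9 promoters there, with more than 1 for Cct2, so counts of promoters are given beside counts of subunits. The ETS core stood in promoters of 3 subunits, Cct8, Tcp1 and Cct2 (3 of 9 promoters), and in 8.86% of all 32851 promoters of this length. The GC box stood in promoters of all 7 subunits searched (8 of 9 promoters) and in 35.7% of all promoters. The CCAAT box stood in promoters of 4, Cct7, Tcp1, Cct3 and Cct6a (4 of 9 promoters), and in 37.4% of all promoters. In the sequences printed, Cct8 has a GC box and an ETS core and no CCAAT box, whereas Cct7 has CCAAT boxes and GC boxes and no ETS core. Cct6a (log2 fold change -2.35 in the authors' deposited table) had the same kinds of match as Cct7. The other subunits with an ETS core were Tcp1 (-2.31) and Cct2 (-1.89). A link between these motifs and the size of the fall was not tested. The pair of heat shock units GAANNTTC was found for Cct2 alone (1 of 9 promoters, against 7.86% of all promoters), and TATAAA for none (13.6%). The shares over all promoters include those of genes without reads, and promoters of genes of like level were not searched apart. The counts therefore do not set CCT promoters apart from those of other expressed genes. A match describes the letters in this window and not a bound site.

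Counts over other lists of the folding pathway stand beside the 18.8% of all tested genes that fell and the 26.9% that rose. Those shares cover all read levels, and falls were commoner at high ones (84.5% of the 155 genes between the means of the subunits). Shares at the level of each list were not computed, so a count above 18.8% does not set a list apart from genes of its level. Prefoldin hands nascent actin and tubulin to CCT. By the authors' deposited table, 4 of its 6 subunits fell and 0 rose (median log2 fold change -1.41). Pfdn2 had 16.0 and 30.5 normalised reads in C and D, against 175 and 164 in A and B, and a log2 fold change of -2.86 (SE 0.314, Benjamini-Hochberg adjusted p = 9.24e-19, from the authors' deposited table). Pfdn6 (-2.23), Pfdn5 (-1.53) and Vbp1 (-0.83), also prefoldin subunits, fell too by the authors' deposited table. Among phosducin-like cofactors, which bind CCT and tune its work, Txndc9 (-2.44) and Pdcl (-1.34) fell of 3 tested, and Pdcl3 had -0.48 without passing, by the authors' deposited table.

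Several relatives of the CCT subunits had few reads. Cct6b, the paralogue of Cct6a with expression known mainly in testis, had 5 and 8 reads in C and D, against 2 and 5 in A and B. With a log2 fold change of 1.32 (SE 1.05, Benjamini-Hochberg adjusted p = 0.0901, from the authors' deposited table) it did not pass. Cct8l1 had 2 and 4 reads in C and D and none in A and B. The authors' deposited table called 2 of the 7 relatives lower and 0 higher, namely the mitochondrial chaperonin Hspd1 (-1.81) and its partner Hspe1 (-1.31). With so few genes this is near the 18.8% over all genes.

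The authors' deposited table has 13 listed actin and tubulin genes, of which 3 fell and 2 rose (median log2 fold change -0.13). The first count is near the 18.8% of all tested genes that fell. Actb, the main cytoplasmic actin, which was singled out after its values were seen, had 630 and 574 normalised reads in C and D, against 633 and 665 in A and B. Its log2 fold change in the authors' deposited table was -0.10 (SE 0.113), given as a description because of how it was chosen.

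Tubb5, a major beta-tubulin, had 345 and 306 normalised reads in C and D, against 652 and 672 in A and B. It fell (-1.01, SE 0.124, Benjamini-Hochberg adjusted p = 9.53e-15, from the authors' deposited table). Tubb4b, whose log2 fold change (-1.97) lay within the range of the subunits, and the gamma-tubulin gene Tubg1 (-1.79) fell as well by the authors' deposited table. The 2 that rose in it were the beta-tubulin genes Tubb6 (1.01) and Tubb3 (1.54). Actin and tubulin genes have near-identical copies, so their reads may have been split or dropped in counting: Actg1 had 3 and 7 reads in C and D and 7 and 3 in A and B.

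Beta-propeller and other clients numbered 18, and by the authors' deposited table, 7 fell and 0 rose (median log2 fold change -0.61). Limma on the recovered reads called 4 rises with library totals, where 50.2% of all genes rose. It called 3 with upper-quartile factors, where 48.5% of all genes rose. The clients with the smallest p in the authors' deposited table were the phosphatase subunit Ppp2r2a (-2.89), the anaphase activator Cdc20 (-2.05), the G protein subunit Gnb1 (-1.65) and the mitotic kinase Plk1 (-1.73). Tubulin cofactors join alpha- and beta-tubulin after CCT has folded them. By the authors' deposited table Tbcb (-2.66) and Tbce (-1.39) fell, of 7 such genes, and 0 rose (median -0.38), a count near the share of all genes that fell. Limma called 1 rise among them with the authors' size factors, upper-quartile factors and library totals. Over all genes 40.9%, 48.5% and 50.2% rose with these.

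Other large folding and degradation machines were set beside CCT. By the authors' deposited table, 10 of 15 genes of the HSP70 and HSP90 system fell and 1 rose (median log2 fold change -1.22). The exchange factor Hspa4 (-2.34), the J-domain protein Dnaja2 (-2.29), the linker Stip1 (-1.99) and Hsp90aa1 (-2.57) fell by the authors' deposited table. The gene that rose by the authors' deposited table was Bag2 (2.81), an HSP70 regulator with 12 and 2 reads in C and D, against 2 and 0 in A and B. Core proteasome genes also encode an assembly of fixed proportions, and 11 of 14 were lower and 0 higher by the authors' deposited table (median log2 fold change -1.72), with Psma6 (-2.73), Psmb2 (-2.28), Psmb7 (-1.87) and Psmb4 (-1.58) among them. Their log2 fold changes spread over genes with an SD of 0.79, against 0.36 for the CCT subunits, but their mean normalised reads were fewer (8.05 to 179), and the difference in spread was not tested.

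**Figure D4:**
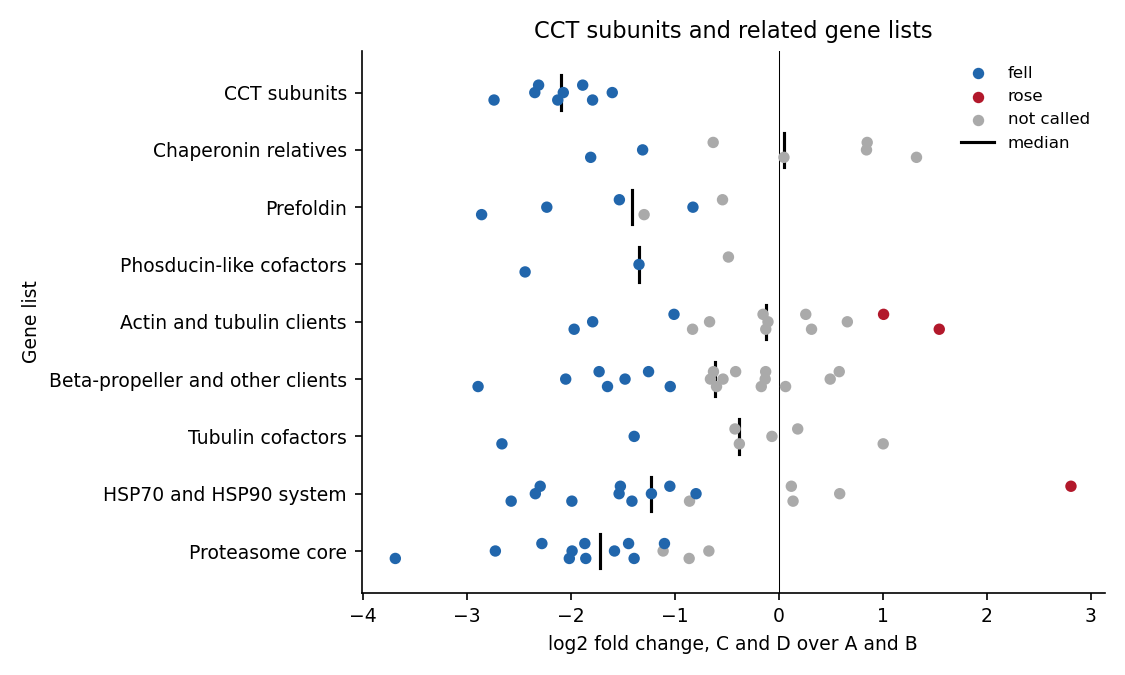
Each point is the log2 fold change of a gene in the authors' deposited table (horizontal axis, libraries C and D over A and B), grouped by list (vertical axis), blue where it fell, red where it rose and grey where it did not pass an adjusted p of 0.05, and black strokes are medians. The CCT subunits lie between -2.74 and -1.60, and the actin and tubulin clients are spread on both sides of 0 with a median of -0.13.

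By distance between centred log2 profiles over the 4 libraries, the 6 genes most like the mean CCT profile, of 185 other genes with a mean at least that of Cct4, were Cenpe (distance 0.0821 log2 units), Hnrnpu (0.0847), Usp9x (0.101), H1f1 (0.121), Trip12 (0.125) and Glg1 (0.129). Cct3 lay at 0.117 and Cct8 at 0.629 from the mean profile. When the 8 subunits were ranked together with these 185 genes, Cct3 had rank 4, Cct4 rank 38, Cct7 rank 74 and Cct8 rank 94. Many other genes thus lay nearer the mean CCT profile than some subunits did. With 4 libraries in 2 pairs this likeness says little beyond a similar fold change. In the authors' deposited table these 6 genes ranged from -2.21 for Usp9x to -2.01 for Trip12.

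Markers of cells and of library quality moved in the same comparison. Their counts stand beside the 18.8% of all tested genes that fell and the 26.9% that rose. Shares at the read level of the markers were not computed. All 8 germ cell markers fell, by the authors' deposited table, with a summed level of 1061 and 1070 CPM (reads scaled to a common total per library) in libraries C and D, against 4527 and 4666 in A and B. Of 8 Sertoli cell markers 2 fell and 1 rose by the authors' deposited table, with 251 and 334 CPM in C and D, against 407 and 360 in A and B. Summed levels were higher in C and D, though single markers disagreed, for Leydig markers (117 and 149 CPM, against 49.9 and 44.3 in A and B), macrophage markers (248 and 285, against 99.9 and 111), T cell markers (131 and 104, against 42.5 and 34.2), endothelial markers (202 and 217, against 121 and 110) and peritubular markers (389 and 447, against 223 and 252). CPM are scaled by library totals, and with that scaling the median log2 fold change of all genes was already 0.91 (limma). Whether these sums exceed that general shift was not tested. By the authors' deposited table, scaled by the authors' size factors, 0 of 5 Leydig markers were called, and 1 of 4 endothelial and 1 of 4 T cell markers were higher. Of 4 macrophage and of 4 peritubular markers 2 each were higher and 1 lower. Those lower were Lyz2 (-1.44) and Pdgfra (-0.67), by the authors' deposited table. With so few markers in a list, these counts do not set such a list apart from all tested genes. No marker on these lists was at 0 in all 4 libraries, and Insl3 was at 0 in library B. Olfactory and vomeronasal receptor genes, known chiefly from sensory neurons, took 0.806% and 0.899% of reads in C and D, against 0.00457% and 0.00469% in A and B. What part these shifts have in the fall of the CCT subunits was not tested.

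The size of the fall depended on the scaling. The order of the subunits could hardly change with it, since a scaling shifts every gene by nearly the same amount. With limma on the recovered reads and the authors' size factors, 8 of 8 subunits fell (28.8% of 14470 genes did), with a median of -2.11. With library totals the median was -1.56 (18.9% of genes fell). With library sizes taken from the 155 genes of like mean, a setting chosen after the data were seen, the median of the subunits was -0.84. In that setting 8 of 8 subunits and 7.68% of genes were called lower, and 64.9% of genes were called higher. The other settings also called 8 of 8 subunits lower. The share of genes that fell was 29.4% with TMM factors, 20.6% with upper-quartile factors, 51.7% with a minimum of 50 reads, 20.2% with no filter, 27.3% with A and B summed and 28.9% without mitochondrial, small RNA or predicted genes. Without library A, B, C or D it was 25.7%, 26.3%, 21.7% or 23.2%. With library sizes from genes of like mean Cct7 had the smallest fall (log2 fold change -0.35, limma, Benjamini-Hochberg adjusted p = 0.0138) and Cct8 the largest (-1.47, limma, Benjamini-Hochberg adjusted p = 4.90e-11). The median of all genes was 0.91 with library totals, against 0.35 with the authors' factors. A change of scaling moves all genes alike, so what moved the distance of the subunits from that median was the set of genes tested: it was -2.47 with the authors' factors, -1.39 with a minimum of 50 reads and -3.61 with no filter. Relative to the genes of like mean the median of the subunits was -0.50 with the authors' factors, -0.39 without library C and -0.57 without library D. With library sizes from the genes of like mean those genes still had a median of -0.33. The median of the subunits relative to them was then -0.51.

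**Figure D5:**
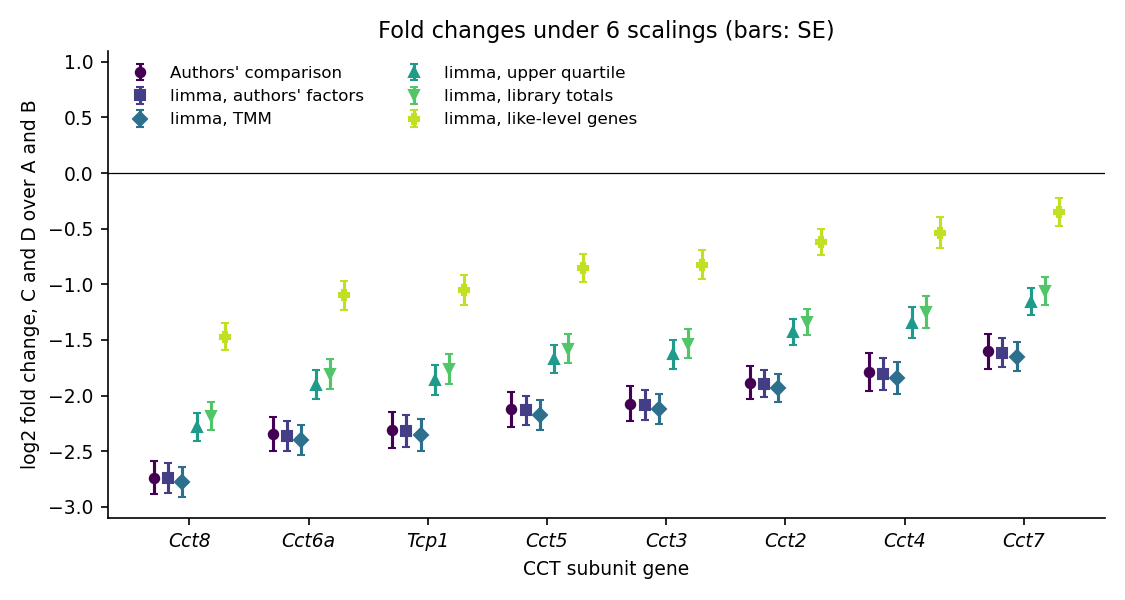
The log2 fold change of each subunit gene (vertical axis, libraries C and D over A and B, bars for 1 SE) is drawn for the authors' deposited table and for limma under 5 scalings. All points lie below 0, from -2.78 for Cct8 with TMM factors to -0.35 for Cct7 with library sizes from genes of like mean.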

How the data were processed

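Fragments of 26 to 34 nucleotides protected from RNase I were sequenced in 2 Ddx20 knockout and 2 control samples. The submitters' processing notes name Trimmomatic 0.39, STAR 2.7.5c, StringTie 2.1.7, DESeq2, edgeR and mm10; no source used here gives the counting rules. Per the file headers, the authors deposited for each gene a mean signal over libraries after size factors, a log2 fold change with its standard error (shrinkage not stated), a p-value and an adjusted p-value. Adjusted values equalled a Benjamini-Hochberg adjustment over the table. A row without a gene name (0.00475% of summed means) was left out.

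The table holds no counts per sample, so the authors' comparison was the main result and no edgeR test was run here. Shares within CCT are unscaled, since no protein lengths were used. Each mean is a sum of whole reads times 1 step per library: 99.985% of 20515 rows had 1 solution (relative tolerance 8e-15), and 0 of 500 shifted values had any. Simulated reads of 20047 genes were recovered in 100.0% of cases. Limma 3.58.1 (voom) was run on genes with at least 10 reads under the alternatives in the closing section. On simulated data (14321 genes, assumed dispersion 0.05) it called 57% of changes of 4-fold, 8% of those of 2-fold and 2 unchanged genes. The real libraries A and B showed no spread beyond sampling noise. In the real data limma with the authors' size factors called 28.8% of genes lower and 40.9% higher. The simulated rates may therefore not carry over. The likeness search added 0.5 reads. Named genes were the 8 subunits, in other lists up to 4 called genes with the smallest p (the rule also takes 2 by mean where none passed, which arose for no list), the 6 most alike genes, Ddx20 and Thy1; Actb, Tubb3, Bag2, Cct6b, Cct8l1, Pdcl3, Actg1, Insl3, Lyz2 and Pdgfra were added after their values were seen. Members and lists were chosen with earlier results of these data known.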

Additional observations from a re-analysis of the deposited data

How the results depend on the processing

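In all 13 alternative fits the 8 subunits kept their negative sign and passed an adjusted p of 0.05 (104 of 104 results), with Cct8 lowest and Cct7 highest in each. Limma was run with the authors' size factors, TMM, upper-quartile factors or library totals, with a minimum of 50 reads or no filter, with A and B summed, leaving out mitochondrial, small RNA or predicted genes, and without each library. All these fits use the same reads, and a change of scaling moves all genes nearly alike. The kept order of Cct8 and Cct7 is therefore no separate support for it. The median of the subunits was -1.65 with upper-quartile factors, -1.56 with library totals and -0.84 with library sizes from genes of like mean, a shift that follows from the scaling. Leaving out each library gave -2.78 to -2.71 for Cct8, -2.49 to -2.20 for Cct6a, -2.39 to -2.23 for Tcp1, -2.22 to -2.06 for Cct5, -2.20 to -1.95 for Cct3, -1.92 to -1.87 for Cct2, -1.87 to -1.73 for Cct4 and -1.67 to -1.56 for Cct7; the lone library of a side is then assumed to vary like the others. Limma called more rises than the authors' deposited table in several lists, and also over all genes, of which 40.9% rose with the authors' size factors, 48.5% with upper-quartile factors and 50.2% with library totals. With library totals it called 6 rises of 13 actin and tubulin genes, 4 of 18 other clients, 2 of 7 chaperonin relatives, 2 of 15 HSP70 and HSP90 genes and 1 of 7 tubulin cofactors, and 1 fall of 3 phosducin-like cofactors. Levels per codon and shares scaled by length were not run, as no protein lengths were used here. No paired analysis was possible because the recovered libraries carry no replicate numbers. Reads per subunit of 64 to 115 in libraries C and D limit the precision of the shares.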
